A study of Mus musculus with 4 samples.

Results

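Mesothelial cells form the thin sheet that lines the pleural and pericardial cavities and covers the organs that face them, among them the thoracic aorta with its surrounding fat. Here they were picked from single-cell RNA libraries of mouse aorta by their own transcripts. A cell barcode was taken as mesothelial when it had 500 or more genes, under 10% mitochondrial transcripts, at least 3 transcripts of Msln and Upk3b together, fewer than 5 of the smooth muscle gene Myh11, and 0 of the leukocyte gene Ptprc and the endothelial gene Pecam1. This rule found 886 cells among 25593 barcodes that met the gene and mitochondrial limits.

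Each library came from the aortic wall of mice aged 16 to 20 weeks, minced and digested with collagenases, and was made with a 5′ droplet kit whose counts are UMIs, the molecular tags that mark each captured transcript once. All groups carried the CNC-SMC-Cre driver, whose make-up the labels do not spell out, and the R26-tdT reporter. The cKO groups carried Smad4flox/flox besides, and their controls had no floxed Smad4 in the labels. The groups were the aortic arch of cKO mice (cKO arch), the aortic arch of control mice (control arch), the descending thoracic aorta of cKO mice (cKO descending) and the descending thoracic aorta of control mice (control descending), with 1 library each. The sources used here do not say how many animals went into a library, so no difference below has a replicate check and no test was made. All intervals are at 95% and cover counting error alone.

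Mesothelium is an epithelium of mesodermal origin that keeps both characters, with keratins and tight junctions on the one hand and the mesenchymal filament vimentin and matrix genes on the other. Its surface carries mucins and a glycocalyx that let organs glide, its cells move fluid and solutes, and they release chemokines, complement and protease inhibitors into the cavity. Wt1 and retinoic acid synthesis by Aldh1a2 mark it in development, and mesothelial cells can take up fibroblast traits when injured.

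The 4 libraries held 9 mesothelial cells of 5842 kept barcodes in the cKO arch, 273 of 8644 in the control arch, 290 of 5901 in the cKO descending and 314 of 5206 in the control descending library. These are shares of 0.154% (0.0705 to 0.292), 3.16% (2.80 to 3.55), 4.91% (4.38 to 5.50) and 6.03% (5.40 to 6.71) in that order, with exact Clopper-Pearson intervals. The cKO arch interval lay below all others, the control arch interval below both descending ones, and the intervals of the descending libraries overlapped. The sources used here do not say how much outer tissue was taken with each aorta, so shares of cells and the extent of the dissection cannot be told apart. The cKO arch library also had a count table of 28693 features, against 32285 in the others, and a median mitochondrial share of 5.02% in its mesothelial cells, against 1.71%, 2.04% and 1.86% in the control arch, the cKO descending and the control descending library.

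**Figure D1:**
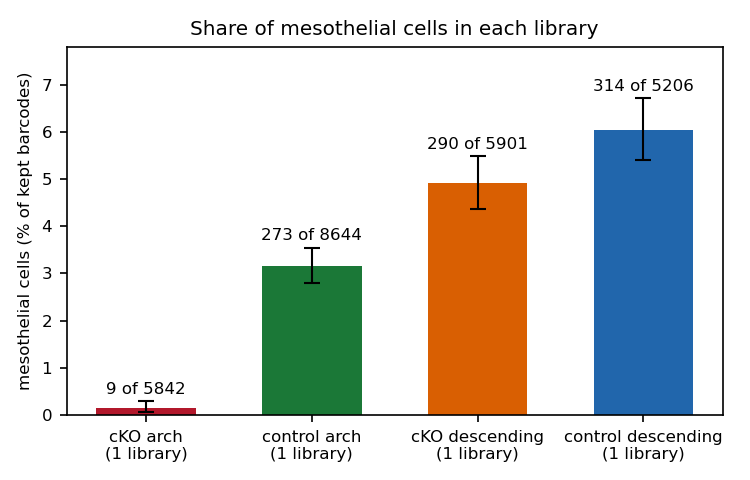
Mesothelial cells as a percentage of kept barcodes in each library (bars, with exact Clopper-Pearson 95% intervals of counting error) and their numbers. The cKO arch library had 9 such cells, and the others had 273 to 314.

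Depth was close across the libraries that are compared below. Median UMIs per mesothelial cell were 10212 in the control arch, 10856.5 in the cKO descending and 11368 in the control descending library, and median genes per cell were 3557, 3596.5 and 3765. No mesothelial barcode was shared between libraries, and any pair of libraries shared 33 to 65 kept barcodes. The Y-linked gene Ddx3y stood at 7.09 CPM (UMIs scaled to a library-wide sum of 1000000) in fibroblasts of the control arch and at 0 in those of both descending libraries, and mesothelial cells had 1, 0 and 0 UMIs of it in the control arch, the cKO descending and the control descending library. By this gene in their fibroblasts, the libraries of the arch comparison are therefore of unlike sex make-up. The mesothelial cells do not show the same, since those of the control arch had 1 Ddx3y UMI among 3292527 UMIs, below the fibroblast level. Their sex make-up was not tested.

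Smad4, the gene targeted in cKO mice, was not lower in mesothelial cells of the cKO descending aorta beyond counting error. It stood at 68.3 CPM (256 UMIs) in the cKO descending and 73.1 CPM (276 UMIs) in the control descending library, a log2 ratio of -0.10 (-0.35 to 0.15). Because the kit reads the start of a transcript, these counts may miss a deletion further along it, and the sources used here do not name the exons flanked by loxP.

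Mesothelial genes that were not part of the rule were high in these cells. Krt19, an epithelial keratin, stood at 1648 CPM in the control arch, 1262 CPM in the cKO descending and 1288 CPM in the control descending library. Wt1, a zinc finger factor of mesothelium and epicardium, stood at 237, 241 and 286 CPM in the same order, and Rspo1, a secreted Wnt amplifier, at 682, 580 and 582 CPM. Of the 23 mesothelial markers listed besides Msln and Upk3b, 22 had 50 or more UMIs in each pair of libraries compared. The exception was Calb2, a calcium-binding protein used as a marker of human mesothelium, with 0, 0 and 2 UMIs. In the cKO arch, 6 of the 9 cells had Krt19, 5 had Lrrn4 and 4 had Wt1, and they are not used further because they are too few.

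Most members lay well above the threshold of 3 UMIs. Members with 3 or 4 UMIs of Msln and Upk3b numbered 14 in the control arch, 17 in the cKO descending and 22 in the control descending library, against 240, 254 and 264 members with 10 or more. Krt19 was found in 57.1%, 58.8% and 50% of the members with 3 or 4 UMIs, whose median depths were 1404, 1433 and 1242 UMIs, and in 96.7%, 96.1% and 93.2% of those with 10 or more. Barcodes just outside, with 1 or 2 UMIs, had Krt19 in 11.4% of 44, 17.0% of 53 and 21.1% of 71 cells. Among leukocytes, which should lack both genes, 3.42%, 2.63% and 1.74% had at least 1 UMI of them, at median depths of 5568, 5943 and 7609 UMIs, and 3, 1 and 2 cells reached 3 UMIs.

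The fibroblasts set beside them had at least 1 UMI of Pdgfra, a growth factor receptor, and 5 of Dcn, a matrix proteoglycan, with the same limits on other cells and fewer than 3 UMIs of Msln and Upk3b. There were 1125 in the control arch, 970 in the cKO descending and 739 in the control descending library. Of the mesothelial cells, 22, 37 and 53 (8.06%, 12.8% and 16.9%) also met the Pdgfra and Dcn limits. These had median depths of 15640.5, 16800 and 15598 UMIs, and Pi16, an adventitial fibroblast marker, stood at 527, 257 and 574 CPM in them against 15.4, 11.8 and 56.7 CPM in the other members. Doublets or mixed droplets were not told apart from cells of mixed character.

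The genes that separate mesothelial cells most from fibroblasts, given as a description because the cells were chosen on their own counts, are surface proteins, keratins and transporters. Besides Msln (1300, 1632 and 1331 CPM in the control arch, the cKO descending and the control descending library) and Upk3b (3148, 2992 and 2972 CPM), which chose the cells, the genes of the highest ratios included Slc26a3, a chloride and bicarbonate exchanger, with 180, 145 and 85.0 CPM. Fibroblasts had 0 UMIs of Slc26a3 in all 3 libraries. The sulfotransferase Chst4 stood at 338, 216 and 110 CPM, against at most 0.123 CPM in fibroblasts. The membrane glycoprotein Gpm6a, the leucine-rich repeat protein Lrrn4 and the uroplakin Upk1b all exceeded 500 CPM in every library, and their fibroblast levels did not reach 1.5 CPM.

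Keratins and junction proteins showed the epithelial side. Krt8 stood at 341, 290 and 222 CPM, Krt7 at 360, 360 and 340 CPM, and Krt18 at 474, 489 and 407 CPM in mesothelial cells, while fibroblasts had at most 1.38 CPM of any of them. The virus receptor and junction protein Cxadr (285, 440 and 452 CPM), the tight junction protein Cgn (104, 137 and 73.8 CPM) and the cadherin Cdh3 (97.8, 56.1 and 57.2 CPM) belonged to the same group. The mucin Muc16 stood at 480, 859 and 549 CPM and the endocytic receptor Lrp2 at 268, 351 and 356 CPM. Far lower than in fibroblasts were the matrix genes Lum (25.5, 14.4 and 37.3 CPM against 2014, 1279 and 1609 CPM), Col15a1 (6.68, 3.74 and 6.88 against 344, 568 and 580 CPM), the chemokine Cxcl12 (4.25, 2.94 and 9.79 against 339, 352 and 374 CPM), and the Wnt binder Sfrp4 (5.47, 4.54 and 38.1 against 429, 1541 and 1434 CPM).

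**Figure D2:**
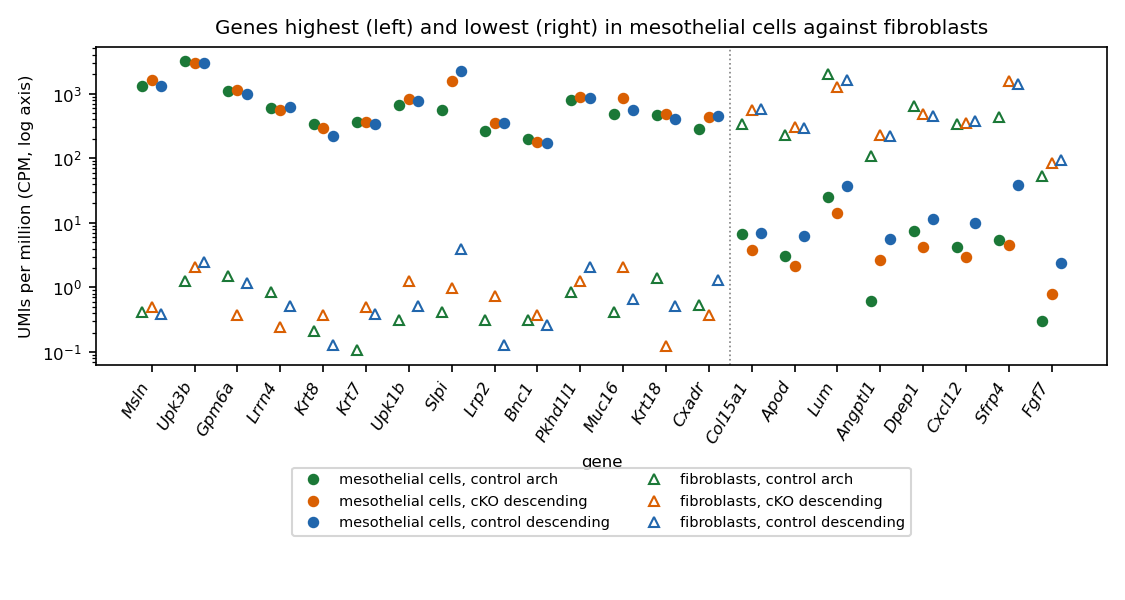
Levels in CPM (log axis) of the 14 genes with the highest and the 8 with the lowest ratio of mesothelial cells (filled circles) to fibroblasts (open triangles), among those counted in both in every library and with 50 CPM or more in the higher cell type. Slpi is the one gene left of the dotted line whose mesothelial level differs by more than 2-fold between libraries, with 566 CPM in the control arch and 2236 CPM in the control descending aorta.

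Mesothelial cells also varied among themselves. After each cell was thinned to 3000 UMIs, which left out 45, 47 and 71 cells with fewer, the genes with the highest Fano factor (variance over mean) in all 3 libraries included Slpi, an inhibitor of neutrophil proteases. Slpi was found in 15.4%, 46.5% and 46.9% of thinned cells (26.0%, 58.3% and 56.4% unthinned) in the control arch, the cKO descending and the control descending library, with Fano factors of 35.6, 25.6 and 26.8. In thinned fibroblasts, 0.105%, 0.474% and 1.08% had it. Other variable genes were the galectin Lgals1 (15.3, 14.8 and 14.3), the binding protein Igfbp5 (14.4, 20.3 and 24.1), complement C3 (8.55, 6.74 and 9.57) and the fibroblast genes Gsn and Pi16. Lars2 and Malat1 were on the same list.

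Both comparisons below use the control descending library, which stands apart from the other libraries in antigen presentation genes, Bst1, Cd38, Fgfbp1 and fat cell genes, so its own state enters every difference. The cKO descending cells were first set against the control descending cells. Of 10288 genes with 50 or more UMIs in these libraries together, 84 (0.816%) were at least 2-fold higher and 222 (2.16%) at least 2-fold lower in cKO cells, 306 (2.97%) in all. In fibroblasts 67 (0.59%) were higher and 126 (1.11%) lower, 193 (1.7%) of 11356 genes. Besides Msln and Upk3b, 0 of 22 measured mesothelial markers were past 2-fold, with a median of 0.01 (log2) beside a median of all genes that differed from 0 by less than 0.01. Muc16 was highest among these markers at 0.65 (0.57 to 0.73) and Slpi lowest at -0.52 (-0.57 to -0.47).

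Fgfbp1, Cd38 and Bst1 were among the 10 genes of highest ratio in cKO descending mesothelial cells. Fgfbp1, which releases fibroblast growth factors from the matrix, stood at 87.3 CPM in the cKO and 2.65 CPM in the control descending library (327 against 10 UMIs), a log2 ratio of 4.98 (4.15 to 6.12). Cd38, an enzyme that consumes NAD, stood at 45.4 against 1.85 CPM, a ratio of 4.52 (3.54 to 5.95). Bst1, its relative and neighbour in the genome, stood at 235 against 54.5 CPM, 2.10 (1.88 to 2.33), and was found in 46.9% of thinned cKO and 10.3% of thinned control cells (75.5% and 19.1% unthinned), against 0.119% and 0% of thinned fibroblasts. The cKO cells were the higher ones for all of these, and the control arch cells, at 194 CPM of Fgfbp1, 72.6 CPM of Cd38 and 351 CPM of Bst1, were higher still. The control descending library is thus the low one of the 3.

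These genes lie side by side on chromosome 5 of mm10, which was noticed after their values had been seen. In the GENCODE M21 annotation, Bst1 lies on the plus strand at chr5:43818885-43843986, Cd38 on the plus strand at chr5:43868553-43912375 and Fgfbp1 on the minus strand at chr5:43978858-43981779. Of the other coding genes within 300 kb, Gm7879, which lies between Cd38 and Fgfbp1, had 44 UMIs in the cKO and 17 UMIs in the control descending cells (1.36), and 89 and 34 UMIs in fibroblasts (1.30). C1qtnf7, below the minimum of 50 UMIs, had 11 and 29 UMIs. The remaining neighbours with enough UMIs were under 2-fold. Fbxl5, a ubiquitin ligase subunit that overlaps the start of Bst1 on the other strand, stood at 67.0 CPM in cKO and 46.8 CPM in control descending mesothelial cells (0.51), Cc2d2a at 30.7 and 30.2 CPM (0.02), and Tapt1 at 11.2 and 15.6 CPM (-0.47). In fibroblasts Bst1, Cd38 and Fgfbp1 stood at 1.61, 1.85 and 0.247 CPM in the cKO and 0.780, 1.95 and 0 CPM in the control descending library. For control arch against control descending mesothelial cells, C1qtnf7 was past 2-fold higher as well, with 87 and 29 UMIs (1.77), while its fibroblast ratio was -0.90. Fbxl5 (0.41), Cc2d2a (-0.03) and Tapt1 (-0.36) were under 2-fold in that comparison.

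The other genes among the 10 highest were of several kinds, and some rested on few cells or were higher in fibroblasts too. Gkn2, a secreted protein of stomach epithelium, had 110 UMIs in 6 cKO cells and 0 UMIs in control cells, at least 37.0-fold more (against a floor of 3 UMIs for the library), and 1 cell held 40% of them. Ren1, renin, stood at 92.1 against 17.2 CPM (2.41), with 60% of the cKO UMIs in 1 cell, and 1.38 without the highest cell. Epcam, an epithelial adhesion molecule, had 272 UMIs in the cKO and 53 UMIs in the control descending library (2.36, 1.94 to 2.82) and was found in 58 and 27 cells, while control arch cells had 7 UMIs. Fibroblasts had 0.123 and 0 CPM of it. The glycogen-binding protein Stbd1 (3.43) and the GABA receptor subunits Gabra3 (2.13) and Gabre (2.12) had ratios in fibroblasts of 2.64, 3.04 and 2.33, and so were higher in both cell types. The BMP binder Vwc2 (2.33) had 30 UMIs in cKO and 0 UMIs in control descending fibroblasts, at least 9.50-fold more against a floor of 3 UMIs. Stbd1, Gabra3 and Vwc2 were also higher in smooth muscle cells, endothelial cells and leukocytes of the cKO descending library. Another cell type of that library reached 123, 72.4 and 86.3 CPM of them, against 67.0, 39.8 and 29.9 CPM in mesothelial cells. Gabre was higher in smooth muscle cells (1.92) and leukocytes (2.00) and level in endothelial cells (-0.06).

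Lower in cKO descending mesothelial cells were 13 of 18 measured antigen presentation genes, described below, and, among the 10 lowest ratios, Ly6a, Mmp2 and Hsd11b1. Ly6a, a surface antigen also called Sca-1, stood at 44.6 CPM in the cKO and 404 CPM in the control descending library, a ratio of -3.17 (-3.42 to -2.95), while fibroblasts had 2429 and 2410 CPM. Mmp2, a gelatinase, stood at 8.28 against 97.9 CPM, -3.54 (-4.14 to -3.03), and Hsd11b1, which makes active glucocorticoid, at 2.14 against 38.6 CPM, -4.10 (-5.42 to -3.16). Both were level in fibroblasts, at -0.32 and 0.01. Of 31 measured matrix protease and fibrinolysis genes, Mmp2 and Plau, urokinase (8.81 against 32.0 CPM, -1.85), were past 2-fold lower and 0 higher, with a median of -0.12. Without the members that also met the fibroblast limits, Ly6a was -3.36, Mmp2 -4.46 and Hsd11b1 -5.15.

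Fat cell and fibroblast transcripts moved with this comparison. Car3, a carbonic anhydrase of fat cells, stood at 0.801 CPM in the cKO and 42.1 CPM in the control descending library (-5.50, -8.01 to -4.14) and was found in 1.03% and 34.1% of cells. It was also lower in smooth muscle cells (-3.74), endothelial cells (-2.11), leukocytes (-3.98) and fibroblasts (-0.84), so the difference is not particular to mesothelial cells. Another cell type of the control descending library reached 292 CPM of Car3. The 10 adipocyte markers summed to 64.3 CPM in the cKO and 393 CPM in the control descending mesothelial cells, and all 5 measured members were past 2-fold lower. Adipoq, which encodes a fat cell hormone, had 0 and 20 UMIs. The 10 fibroblast markers summed to 8611 and 12821 CPM, with Dpt (-2.30), Gsn (-1.68), Pi16 (-1.58) and Lum (-1.36) past 2-fold lower. Without the members that also met the fibroblast limits Lum was -0.81, and at equal depth Pi16 was -0.70. The part of these transcripts in the results was not tested.

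**Figure D3:**
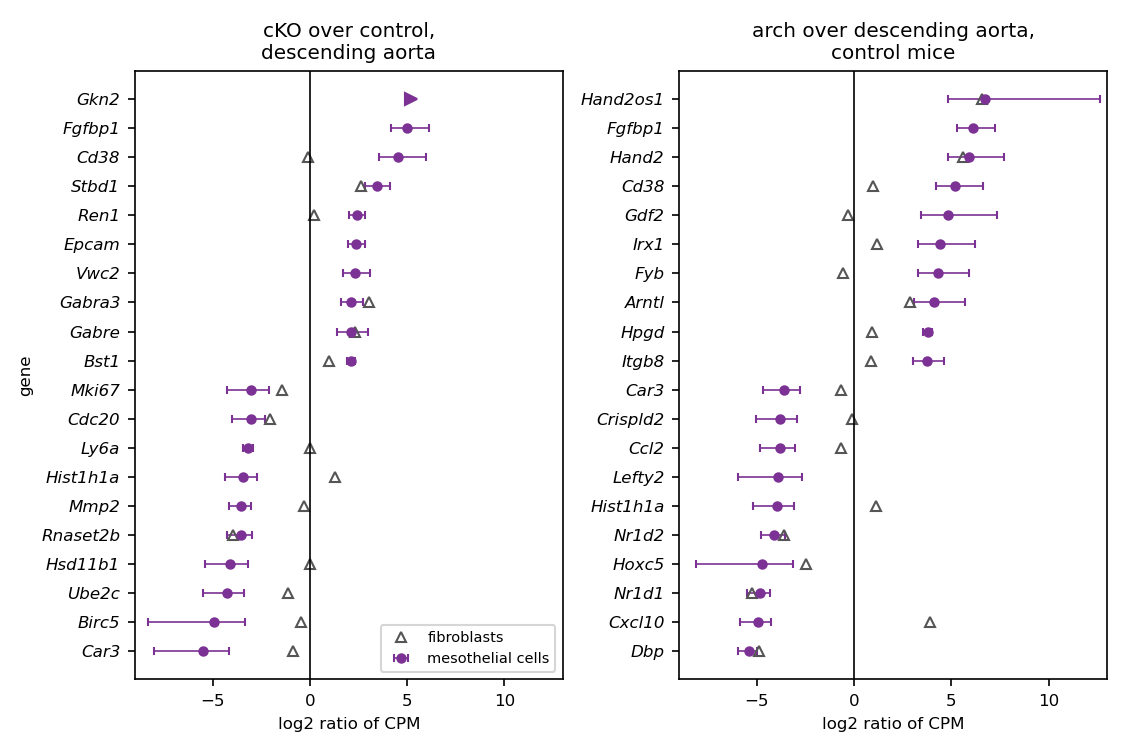
Log2 ratios of the 10 genes furthest from 0 in each direction, cKO over control in the descending aorta (left) and arch over descending aorta in control mice (right), with 95% intervals of counting error for mesothelial cells (circles) and the ratio in fibroblasts (triangles, drawn where both libraries had UMIs). Gkn2, with 0 UMIs in the control descending library, is drawn as an arrow at its lower bound of 5.21 (log2). Fgfbp1 and Cd38 are among the highest genes on both sides, and the control descending library is shared by both.

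Cell division genes were lower through few cells. The list had a median of -0.61 with 11 of 23 genes past 2-fold lower, among them Ube2c (9 against 185 UMIs, -4.28) and Birc5 (2 against 76 UMIs, -4.92). Only 1 of 290 cKO and 4 of 314 control cells had 10 or more UMIs of 11 division genes (0.345%, 0.00873 to 1.91, and 1.27%, 0.348 to 3.23), and in the control descending library these 4 cells held 938 of 986 UMIs. Rnaset2b was lower in mesothelial cells (-3.55), fibroblasts (-3.97), smooth muscle cells (-3.62), endothelial cells (-3.61) and leukocytes (-4.13). Its near-identical copy Rnaset2a, at 416 CPM in cKO and 328 CPM in control mesothelial cells, can take reads of Rnaset2b, whose value is therefore uncertain. Red cell transcripts were past 2-fold higher in cKO cells for all 4 measured genes, but 93.3% of 8732 UMIs lay in 1 cell, and with the highest cell of each gene left out the median was -0.57.

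Among the lists with 10 or more measured genes, antigen presentation had the median furthest from 0 in both comparisons. MHC class I molecules show peptides from inside the cell, with B2m as their light chain and Tap1 as peptide pump. MHC class II molecules, made of H2-Aa, H2-Ab1 and H2-Eb1 chains and loaded with the help of Cd74, are the mark of professional antigen-presenting cells, and other cells make them when exposed to interferon gamma. Of 18 measured genes, 13 were past 2-fold lower and 0 higher in cKO descending cells, with a median of -1.14. In fibroblasts 0 of 17 were past 2-fold, with a median of -0.03.

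Class II genes showed the largest differences. Cd74 stood at 89.7 CPM in the cKO and 931 CPM in the control descending library, a ratio of -3.37 (-3.54 to -3.21). H2-Aa stood at 27.8 and 284 CPM (-3.35), H2-Ab1 at 20.3 and 280 CPM (-3.78) and H2-Eb1 at 4.27 and 109 CPM (-4.64, -5.50 to -3.96). Among class I genes, H2-Q7 stood at 31.8 and 191 CPM (-2.59), B2m at 876 and 1753 CPM, H2-K1 at 1776 and 3361 CPM (-0.92) and H2-D1 at 2861 and 4550 CPM (-0.67). The control descending library is the high one throughout, and the class II ratios exceed those of H2-K1 and H2-D1.

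The upstream sequences of a class II pair and of an interferon-induced pair are shown as examples, and each holds the letters searched for. All of them were lower in cKO than in control descending cells. H2-Ab1 and Cd74 were lower as well but are not among the genes with a Y box match, so the pair does not stand for all class II genes. The 150 bases before the annotated start are given 5′ to 3′ on the gene's strand, from RefSeq (GRCm38.p6), with the searched letters in capitals. For the class II genes these are the Y box CTGATTGG, the textbook NF-Y site of class II promoters, and for B2m and the membrane protein Bst2 the interferon response element, a pair of GAAA with any 2 bases between.
H2-Aa: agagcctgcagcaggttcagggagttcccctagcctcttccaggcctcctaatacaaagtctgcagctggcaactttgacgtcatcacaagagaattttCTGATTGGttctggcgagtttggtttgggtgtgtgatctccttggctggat
H2-Eb1: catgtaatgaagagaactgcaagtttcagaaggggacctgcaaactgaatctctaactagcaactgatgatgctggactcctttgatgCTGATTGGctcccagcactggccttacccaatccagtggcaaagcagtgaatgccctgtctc
B2m: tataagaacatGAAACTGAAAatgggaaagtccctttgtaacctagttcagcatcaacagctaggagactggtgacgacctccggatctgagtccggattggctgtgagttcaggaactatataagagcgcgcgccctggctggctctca
Bst2: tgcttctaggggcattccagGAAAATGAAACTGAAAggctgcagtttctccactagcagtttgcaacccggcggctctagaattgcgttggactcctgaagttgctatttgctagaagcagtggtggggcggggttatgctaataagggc
They lie at chr17:34287824-34287973 (minus strand), chr17:34305717-34305866 (plus), chr2:122147537-122147686 (plus) and chr8:71537473-71537622 (minus). Both strands were searched, and in Bst2 a pair of overlapping matches forms the capitals. The Y box starts 51 bases before the start of H2-Aa and 62 before that of H2-Eb1, and is found in 3.16% of 32851 mouse promoters of this length. It is found in 6 of 16 antigen presentation genes with a promoter in the table (37.5%), of which H2-Aa and H2-Eb1 are class II genes and H2-D1, H2-Q6, H2-Q7 and H2-T23 class I genes. The interferon letters are found in 1.59% of all promoters and in 12 of 27 interferon-stimulated genes (44.4%). A match is a description of the letters and not a measured site.

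**Figure D4:**
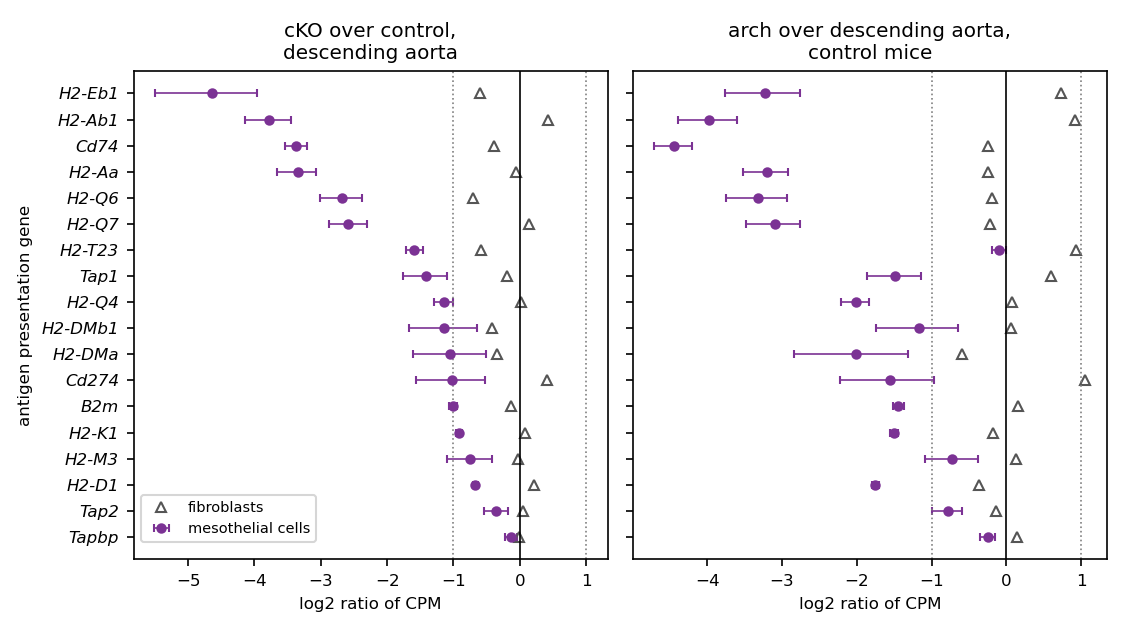
Log2 ratios of the 18 measured antigen presentation genes, cKO over control in the descending aorta (left) and arch over descending aorta in control mice (right), in mesothelial cells (circles, with 95% intervals of counting error) and fibroblasts (triangles). Dotted lines mark 2-fold. Mesothelial ratios lie below 0 for every gene on both sides, from -4.64 for H2-Eb1 to -0.13 for Tapbp on the left, while fibroblast ratios lie around 0.

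Class II transcripts were concentrated in some of the control descending cells. Cells with 10 or more Cd74 UMIs numbered 7 of 290 in the cKO descending (2.41%, 0.976 to 4.91), 1 of 273 in the control arch (0.366%) and 75 of 314 in the control descending library (23.9%, 19.3 to 29.0). At an equal depth of 3000 UMIs, 3 or more Cd74 UMIs were found in 2.47% of cKO descending, 0.439% of control arch and 30.5% of control descending cells, and any UMI in 12.3%, 4.39% and 48.1%. In fibroblasts of the same libraries 0.412%, 0.444% and 0.541% had 10 or more, and 9.90%, 9.96% and 14.9% had any UMI. The limit of 10 is a point on a range, since 22 control descending cells had 5 to 9 Cd74 UMIs and 21 had 10 to 19.

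**Figure D5:**
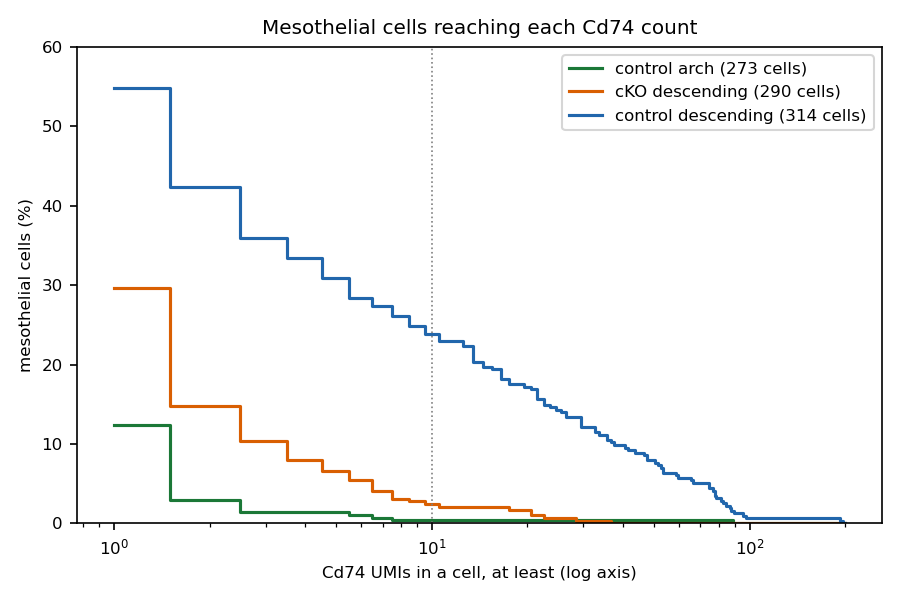
Percentage of mesothelial cells that reach at least the number of Cd74 UMIs on the horizontal axis (log axis), by library, with the limit of 10 UMIs dotted. At 10 UMIs the cKO descending line stands at 2.41%, the control arch line at 0.366% and the control descending line at 23.9%.

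Within the control descending library, the 75 Cd74-high cells also had more of other class II genes, which follow the choice of the cells, and differed in genes of other kinds. H2-Aa stood at 793 CPM in Cd74-high and 59.5 CPM in the other 239 cells. The T cell chemokine Ccl5 stood at 77.8 against 0.382 CPM (90 against 1 UMIs), Ly6a at 851 against 206 CPM and Hsd11b1 at 97.7 against 12.6 CPM. Lower in Cd74-high cells were Slpi (503 against 3001 CPM), Msln (550 against 1676 CPM), Muc16 (264 against 675 CPM), Krt8 (109 against 271 CPM) and Bst1 (1 against 205 UMIs). Krt19, at 1560 against 1168 CPM, Wt1, at 365 against 251 CPM, and Upk3b, at 2446 against 3204 CPM, differed by less than 2-fold.

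In the control descending library, the sum of the 13 leukocyte markers was not higher in Cd74-high cells. It was 56.2 CPM in Cd74-high and 95.4 CPM in the other control descending cells, with Lyz2 at 19.0 against 36.2 CPM. Ptprc was at 0 by the rule, which leaves out every barcode with this gene, and Ccl5 is not among the 13 markers. The sum therefore cannot tell where the class II transcripts came from, and their source was not tested. Median depth was 14446 UMIs in Cd74-high and 8684 UMIs in the other cells, and 17 of 75 against 36 of 239 also met the fibroblast limits. The 7 Cd74-high cKO descending cells had 249 CPM of leukocyte markers, against 48.3 CPM in the other 283, and the single such control arch cell had 1647 CPM, which is above the level of the other cells. Where all Cd74-high cells were left out of every library, a step added after the data had been seen, the antigen presentation median was -0.64 for cKO against control, Cd74 was -1.04, Ly6a -2.23 and Bst1 1.64, and genes past 2-fold lower numbered 131. Since this step removes cells by their Cd74 count, smaller Cd74 and class II differences follow from it.

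Interferon-stimulated genes were lower along with antigen presentation. Of 35 measured genes, 11 were past 2-fold lower and 0 higher in cKO descending cells, with a median of -0.63, against 0.05 and 0 of 32 in fibroblasts. Iigp1, an interferon-inducible GTPase, stood at 44.6 CPM in the cKO and 244 CPM in the control descending library (-2.45, -2.70 to -2.21) and Bst2 at 252 and 995 CPM (-1.98). Isg15, a ubiquitin-like protein induced by type I interferon, stood at 142 and 219 CPM (-0.63), under 2-fold. Among 21 measured inflammatory mediators 8 were lower and 1 higher, with Ccl5 at 0.801 and 24.1 CPM (-4.70), the chemokines Cxcl10 at 23.5 and 147 CPM (-2.64) and Cxcl13 at 5.34 and 31.2 CPM (-2.52), and the higher one Ccl2 at 111 and 53.7 CPM (1.05). Cxcl10 lay in few cells, with 7.96% of control descending cells holding all its UMIs and 1 of them 32.3%. In the control descending library Ccl2 was found in 21 cells, and 1 of them held 36.9% of its UMIs.

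Signalling and matrix lists had smaller median shifts than the antigen presentation list. Over all measured genes, 0.816% were past 2-fold higher and 2.16% lower. Of 52 TGF-beta and BMP pathway genes, 1 was past 2-fold higher, Vwc2, which was also higher in the other cell types. The 2 lower were the bone morphogenetic protein Bmp3 (5.07 against 18.3 CPM, -1.82) and the BMP-induced factor Atoh8 (-1.09), and the median was -0.24. The BMP-induced Id genes stood at -0.30 (-0.54 to -0.06) for Id1, 0.36 (-0.10 to 0.82) for Id2 and -0.38 (-0.46 to -0.29) for Id3. Interstitial matrix genes had a median of -0.44 with 7 of 47 lower, a larger share than over all genes. Among them were Fn1, fibronectin, at 260 against 602 CPM (-1.21), Dpt and Lum, and 1 gene was higher, Col8a1, at 12.3 against 2.65 CPM (2.16). In fibroblasts that list had -0.17. Among mesothelial and epicardial transcription factors 0 of 16 were past 2-fold, and the medians of the glycolysis (0.02), circadian (0.10) and transport lists (0.25, with the serotonin transporter Slc6a4 higher at 2.04) were within 0.3 of 0.

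Control arch cells were then set against control descending cells, a comparison that uses the same control descending library as the one above, so the values of the 2 comparisons are not independent. Of 10135 genes, 184 (1.82%) were past 2-fold higher and 400 (3.95%) lower in arch cells, 584 (5.76%) in all. In fibroblasts 317 (2.74%) were higher and 269 (2.33%) lower, 586 (5.07%) of 11554 genes. Besides Msln and Upk3b, 0 of 22 measured mesothelial markers were higher and 1 lower, Slpi at 566 CPM in the arch and 2236 CPM in the descending library (-1.98, -2.06 to -1.91).

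Transcription factors of position were among the highest genes. Hand2, a factor of the heart, outflow tract and pharyngeal arches, stood at 87.5 CPM in the arch and 1.32 CPM in the descending library (288 against 5 UMIs), a ratio of 5.91 (4.81 to 7.68), and its antisense neighbour Hand2os1 at 42.5 and 0.265 CPM (6.75). The sources used here do not give the strand setting of the counting, so reads of this pair may not be fully separate. Hand2 had the same difference in fibroblasts, 40.8 against 0.780 CPM (5.60). Irx1 (30.7 against 1.32 CPM, 4.40) and Irx2 (46 against 4 UMIs, 3.57), homeobox factors, were higher too. In arch and descending fibroblasts Irx1 stood at 1.27 and 0.52 CPM and Irx2 at 2.12 and 3.25 CPM, so Irx2 was not higher in arch fibroblasts. Of 20 factors on the list 7 were higher, with Tcf21 (1.92), Tbx18 (1.23), Sox9 (1.18) and Gata4 (33.7 against 15.4 CPM, 1.13) besides, and 1 lower, Ebf1 (-1.25).

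Hox genes, which mark position along the body axis, had few UMIs in mesothelial cells. The 18 posterior ones summed to 52.2 CPM in the control arch and 92.9 CPM in the control descending cells. Of these, 13 had 0 UMIs in the arch and 6 in the descending cells. Of the posterior ones on the list, Hoxc5 stood at 0.607 CPM in the arch and 20.1 CPM in the descending mesothelial cells (2 against 76 UMIs, -4.74) and Hoxa5 was at -0.36, and no other posterior gene had enough UMIs in them. In fibroblasts 10 had enough, and 9 were past 2-fold lower. Of 6 measured anterior Hox genes 2 were past 2-fold lower, Hoxc4 (6.99 against 33.3 CPM, -2.23) and Hoxa3 (8.20 against 18.3 CPM, -1.14), and 1 was higher, with a median of 0.01. Without Cd74-high cells Hoxa3 was at -0.98.

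The other genes among the 10 highest were of several kinds. The prostaglandin-degrading enzyme Hpgd stood at 593 CPM in the arch and 43.1 CPM in the descending library (3.78, 3.55 to 4.02), with 80.3 CPM in cKO descending cells and 15.8 and 8.45 CPM in arch and descending fibroblasts. Gdf2, also called BMP9, a circulating BMP ligand, stood at 25.8 and 0.794 CPM (85 against 3 UMIs, 4.81, 3.43 to 7.33) and was found in 48 of 273 arch and 3 of 314 descending cells. Fgfbp1 (194 against 2.65 CPM, 6.13), Cd38 (72.6 against 1.85 CPM, 5.20) the integrin chain Itgb8 (54.4 against 3.97 CPM, 3.73) and the intracellular adaptor Fyb (113 against 6 UMIs, 4.32) were higher too. Spon2, a matrix protein, stood at 210 and 16.4 CPM (3.67) while its fibroblast ratio was -0.43, and the transport list held the water channel Aqp1 (802 against 389 CPM, 1.04) and the ion transport regulator Fxyd3 (319 against 88.9 CPM, 1.84).

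Clock genes were shifted in both cell types. Dbp, an output gene of the clock, stood at 10.9 CPM in the arch and 479 CPM in the descending library (-5.43, -5.97 to -4.98), Nr1d1, a clock repressor, at 8.20 and 243 CPM (-4.86), and Arntl, the activator that runs opposite to them, at 29.8 and 1.59 CPM (4.12). Fibroblasts had -4.90, -5.27 and 2.88 for the same genes. Of 20 clock genes 5 were higher and 9 lower in mesothelial cells, and 4 and 9 in fibroblasts. The sources used here do not give the hour at which tissue was taken.

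Antigen presentation was lower in arch than in descending control cells, with 14 of 18 genes past 2-fold lower and a median of -1.65, against 0.07 in fibroblasts. Cd74 stood at 42.5 CPM in the arch and 931 CPM in the descending library (-4.45, -4.71 to -4.21) and H2-D1 at 1351 and 4550 CPM (-1.75). Without Cd74-high cells the median was -1.10 and Cd74 -2.74. Of 35 measured interferon-stimulated genes 8 were past 2-fold lower and 1 higher, with a median of -0.39. Iigp1 (59.8 against 244 CPM, -2.02) and Psmb8, a subunit of the immunoproteasome (95.4 against 403 CPM, -2.08), were the lowest. The higher one was Ifit3b (179 against 81.5 CPM, 1.13), whose reads may be split with its near copy Ifit3 (247 against 156 CPM, 0.66). Isg15 (357 against 219 CPM, 0.70) and Bst2 (4252 against 3759 UMIs, 0.38) were under 2-fold, while B2m, of the antigen presentation list, was at -1.44. In fibroblasts 21 of 34 were past 2-fold higher with a median of 1.21, and Isg15 had 3.18, Ifit3 3.17 and Iigp1 1.88.

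Inflammatory mediator and protease genes past 2-fold were lower in the arch cells with 1 exception. Of 22 inflammatory mediators 11 were lower and 1 higher, with a median of -0.90. Cxcl10 stood at 4.56 against 147 CPM (-4.96), Ccl2 at 3.64 against 53.7 CPM (-3.83) and Ccl5 at 0 against 91 UMIs, at least 26.4-fold lower. Ccl2 was found in 21 descending cells, and 1 of them held 36.9% of its UMIs there. The iron-binding protein Lcn2 was higher at 13.1 against 3.18 CPM (2.00). Of 31 proteases and fibrinolysis genes 8 were lower and 0 higher, with Plau, urokinase, at 4.25 against 32.0 CPM (-2.87) and its receptor Plaur at 30.1 against 98.5 CPM (-1.71). Of 16 retinoid genes 5 were lower and 0 higher, with a median of 0.09, and all 27 on the list summed to 7184 CPM in arch and 5197 CPM in descending cells. The lower ones included the retinol importer Stra6 (2 against 68 UMIs, -4.58) and the receptor Rarb (5.47 against 27.5 CPM, -2.30), while Aldh1a2, which makes retinoic acid, stood at 686 and 535 CPM (0.36) and Rarres2, which encodes the chemoattractant chemerin, at 4683 and 2806 CPM (0.74).

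Heart and fat transcripts differed with the region as well. The 10 cardiomyocyte markers summed to 200 CPM in arch and 54.3 CPM in descending mesothelial cells, and Myl7, an atrial light chain, had 190 against 36.0 CPM (2.39) while its fibroblast ratio was -2.22. The adipocyte markers summed to 84.4 and 393 CPM, with 4 of 5 lower, the fibroblast markers to 7991 and 12821 CPM and the leukocyte markers to 39.2 and 83.4 CPM. Endothelial markers summed to 263 and 191 CPM with Pecam1 at 0 by the rule. The part of these transcripts in the region results was not tested.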

How the data were processed

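Each of the 4 deposited files holds UMI counts per gene and cell barcode, from barcodes the authors had called as cells. Per the submitters' processing notes, Cell Ranger 6.1.1 and mm10 were used, while the matrix headers name 6.1.2. The sources used here do not name the annotation release, and the cKO arch file lists other features than the rest. Groups came from the labels, with 1 library in each.

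From the counts, cells were gated as stated in the report. UMIs were summed over the cells of a gate and library and scaled to a sum of 1000000 (CPM). For log2 ratios 0.5 UMI was added to each sum. Their intervals are exact and conditional on the total, and those of shares are Clopper-Pearson. Calls past 2-fold were made where the pair of libraries held at least 50 UMIs. No test was made, because each group is 1 library. Smooth muscle cells had at least 20 UMIs of Myh11, endothelial cells at least 2 of Pecam1 and 1 of Cdh5, and leukocytes at least 2 of Ptprc.

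Named genes are the 10 highest and 10 lowest ratios of each comparison among genes that meet this minimum and reach 20 CPM in either library. Genes without a proper symbol, mitochondrial, ribosomal protein, haemoglobin, immune receptor and Y-linked genes, Xist and Tsix were left out. So were genes under 0.1 of the level in another gate. A gene counts as shared with fibroblasts when its ratio there has the same sign and at least 0.5 of the size. Besides, the 25 genes highest against fibroblasts, the 15 most variable genes, the markers, and the 4 members of each of 32 lists furthest from 0 could be named. Bst1 neighbours, Cd74 subsets, Smad4, the Id genes, and list members beyond the furthest 4 were named after their values had been seen. The members and lists were chosen with earlier results of these data known. Alternatives fixed with the design were other filters, marker limits, scaling, count minimums, priors, thinning to 3000 UMIs and removal of doublets. Scrublet (scanpy 1.11.5) called 3, 302, 122 and 3 cells in the libraries in the order of the report's opening, so its threshold did not work in the first and last, and doublets stay in the main results. Its highest scores were removed as an alternative, at a rate rising with the barcodes. Python 3.11.15, NumPy 2.4.6, SciPy 1.17.1, pandas 2.3.3 and matplotlib 3.10.9 were used, and the code was tested on simulated counts.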

Additional observations from a re-analysis of the deposited data

Results flagged for a closer look

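Of the 10 highest and 10 lowest genes per comparison, those with mesothelial and fibroblast ratios opposite in sign and past 2-fold were singled out. The difference between the ratios was not tested. Cxcl10 had a log2 ratio of -4.96 for the arch against the descending aorta in control mesothelial cells, while the fibroblast ratio was 3.91. Its UMIs lay in 6 arch and 25 descending mesothelial cells, and 1 of the descending cells held 32.3% of those there. Fibroblast levels of Cxcl10 were low, at 6.77 CPM in the arch and 0.390 CPM in the descending library. Hist1h1a, a linker histone made in dividing cells, had -3.44 for cKO against control in descending mesothelial cells, while the fibroblast ratio was 1.29, and -3.96 for the arch against the descending aorta, while the fibroblast ratio was 1.13. A single control descending cell held 94.1% of its UMIs there, and its fibroblast levels were at most 2.96 CPM.

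The cKO arch table alone counts a feature named RFP, which no comparison above uses. The 9 mesothelial cells of that library held 13 RFP UMIs, 1.44 per cell, with at most 4 in a cell. Leukocytes of the same library held 2.26 per cell, fibroblasts 40.6 and smooth muscle cells 27.3. The median was 1 UMI in both mesothelial cells and leukocytes, and 7 of 9 mesothelial cells and 950 of 1322 leukocytes had at least 1. The sources used here do not give the sequence behind the feature.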

How the results depend on the processing

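No paired analysis was possible because each group is 1 library. The mesothelial share of the control arch was 2.78% with 10 or more marker UMIs and 3.61% with every cell thinned to 3000 UMIs. In the cKO descending library it was 5.71% with 1000 genes and 5% mitochondrial UMIs as limits, 4.30% with 10 or more marker UMIs, 4.29% without members in the fibroblast gate and 5.76% after thinning, and in the control descending library 5.07% with 10 or more marker UMIs, 4.96% with both markers required and 5.01% without members in the fibroblast gate. Genes past 2-fold in cKO against control descending cells numbered 42 higher and 74 lower after thinning, 25 and 60 with at least 200 UMIs, and 333 and 664 with at least 10 UMIs. Leaving out cells with 10 or more Cd74 UMIs, added after the data were seen, gave 131 lower. For arch against descending control cells the numbers were 112 higher and 134 lower after thinning, 75 and 120 with at least 200 UMIs, and 432 and 940 with at least 10 UMIs. The counts after thinning and with other minimums depend on how many genes meet each minimum, while the Cd74 step kept the minimum of 50 UMIs. With the highest cell of each gene left out, also added later, the red cell list turned to -0.57, with Hba-a1 at -0.59, Hba-a2 at -0.69, Hbb-bs at -0.31 and Hbb-bt at -0.54 for cKO against control, and Ren1 to 1.38. Thinning turned Rbp4 to 0.021 for the arch, and the cause was not tested. Of 168 genes past 2-fold that could be named, 34 came under 2-fold in at least 1 alternative, 19 of them in those fixed with the design. When Cd74-high cells were left out, those under 2-fold included Podxl, Lamc3, Rarb and Zeb2 in cKO against control. In the arch they included Hoxa3, Ifi47 and Tap1. The antigen presentation median was -0.64 for cKO against control and -1.10 for the arch without Cd74-high cells, a step that removes cells by a gene of that list, and between -1.42 and -1.08 and between -1.88 and -1.63 in the other alternatives run.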

Other observations

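Surface and junction genes outside the closest markers also differed in the mesothelial cells. Podxl, a sialomucin of the surface coat, stood at 64.3 CPM in the cKO and 150 CPM in the control descending library (-1.22), and at 45.9 CPM in the control arch. The basement membrane protein Hmcn1 stood at 170 against 67.2 CPM (1.33). In arch against descending control cells, the basal keratin Krt14 stood at 89.6 against 17.7 CPM (2.33), the desmosomal cadherin Dsg2 at 64.7 against 19.6 CPM (1.72, but 0.77 with every cell thinned to 3000 UMIs) and the tight junction protein Cldn1 at 5.77 against 56.4 CPM (-3.25). The tetraspanin-like surface protein Tm4sf1 stood at 1338 against 480 CPM (1.48), and its fibroblast ratio was 1.34. The alternative pathway factor Cfb stood at 101 against 383 CPM (-1.92), the complement protease C1s1 at 418 against 1033 CPM (-1.30) and C3 at 4746 against 7920 CPM (-0.74), while their fibroblast ratios were 0.23, -0.47 and 0.63. Tgfbi, a matrix protein induced by TGF-beta, stood at 10.6 against 77.6 CPM (-2.85), and the inhibitor of cell division Cdkn1c at 166 against 59.6 CPM (1.48).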
